A study of Mus musculus with 12 samples.

Results

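The genes described are those of the motile cilium axoneme, the microtubule core that bends to make a cilium or sperm tail beat. They were chosen by symbol: every gene whose symbol begins with Dnah, Dnai, Cfap, Rsph, Spag or Tekt followed by a digit and that had at least 10 counts in all over the 12 libraries. Of 55401 gene identifiers, 73 matched and 68 reached the minimum. The other 5 were Cfap97d1, Spag11a and Spag17os with 0 counts and Spag11b and Tekt3 with 1 count each. The members nearest the minimum were Cfap73 with 19 counts and Cfap221 and Dnah2os with 39 each. No symbol of the form Dnai and a digit exists in the annotation used, where the dynein intermediate chains are named Dnaic1 and Dnaic2 and so are not members. The symbols are not all axonemal: 58 members encode proteins known or annotated as parts of the motile axoneme or its assembly, 9 with a Spag or Cfap symbol were set apart as having, or being taken to have, roles outside it (Spag4, Spag5, Spag7, Spag9, Cfap20, Cfap36, Cfap97, Cfap97d2 and Cfap298, the last also known in dynein assembly), and Dnah2os is an antisense transcript of the Dnah2 locus. The split is a choice: Cfap20 is also a microtubule protein of cilia, and Spag1, a dynein assembly factor, was kept among the 58.

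Poly(A) RNA was sequenced from prefrontal cortex. The mice were C57BL/6J males, 14 weeks old, and adeno-associated virus (AAV) had been injected into the dorsomedial part on both sides 4 weeks before. Control mice (4 libraries) received a vector with green fluorescent protein (GFP) under the CAG promoter. The overexpression group (4 libraries) received GFP joined to Ttr, the transthyretin gene, under the same promoter, and the knockdown group (4 libraries) received a U6-driven short hairpin against Ttr with CAG-driven GFP. All groups thus carried an AAV and GFP, the 2 Ttr vectors came from another source than the control vector, and CAG is active in many cell types rather than in one. The labels do not state that each library came from its own mouse, so p-values measure the spread between these libraries, part of which may be technical.

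A motile cilium has outer doublet microtubules around a central pair. Dynein motors in outer and inner arms on the doublets slide them past each other, while radial spokes, the central apparatus and the tether proteins of the inner arms set when each motor works. In the brain, tufts of such cilia stand on the ependymal cells that line the ventricles and move cerebrospinal fluid, and the transcription factor Foxj1 with factors of the Rfx family, which bind a DNA motif called the X-box, drives their genes. Neurons and astrocytes carry a single primary cilium that lacks the beating machinery.

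The X-box was therefore searched in the members' promoters (250 bases before to 50 after the start), as RefSeq gives them on GRCm38.p6. Of the 68 members, 55 matched a promoter by symbol and 13 did not: Cfap157, Cfap299, Cfap53, Cfap54, Cfap65, Cfap73, Cfap97, Dnah2os, Dnah3, Rsph1, Rsph10b, Rsph4a and Spag1. The pattern was GTNNCC, 1 to 3 bases, then GGNNAC, which reads as the same pattern on both strands, and it was found in 10 of 55 members (18.2%, 95% exact binomial interval 9.08 to 30.9%) against 1082 of 27025 genes of the promoter table (4%). With a spacer of exactly 2 bases the shares were 14.5% and 2.16%. The forkhead pattern GTAAACA, or TGTTTAC on the other strand, to which Foxj1-type factors bind, was in 3 of 55 members (5.45%; Cfap20, Cfap43 and Dnah17) and in 4.05% of genes. A match is a string of letters and not a measured binding site. The matches are shown because they are what these regulators are known to read, each with its distance from the start to the first base of the match:
Cfap126, at -82: GTATCCATGGCTAC
Cfap206, at -23: GTTTCCACGGTTAC
Cfap298, at -188: GTTGCCCGGGCAAC
Cfap298, at -69: GTTGCCCCTGGCAAC
Cfap43, at -72: GTCTCCAGGATAC
Cfap58, at -59: GTTGCCAGGCGAC
Cfap77, at -236: GTCACCAAGGAGAC
Rsph9, at -6: GTCTCCATGGAGAC
Spag5, at -186: GTAACCGGGGGAAC
Spag6l, at 34: GTTGCCCTGGAGAC
Tekt4, at -160: GTGTCCTGGGAAAC

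Full promoters are printed for 3 of them, because their levels differed in pattern: Cfap43 and Cfap126 followed the ependymal markers across libraries, and Rsph9, the most abundant axonemal member per length, did not pass that test. Each runs 5′ to 3′ on the gene's strand, with the X-box pattern in capitals. The Cfap43 promoter is chr19:47837312-47837611 (minus strand) and also holds the forkhead pattern just after the X-box, that of Cfap126 is chr1:171122795-171123094 (plus strand) and that of Rsph9 is chr17:46144151-46144450 (minus strand), all on GRCm38.p6. For 6 members RefSeq gives 2 or more promoters, and a pattern was counted where any of them held it. Cfap126 has 3, of which only the printed one holds the X-box. The printed promoters of Cfap126 and Cfap43 lie inside the genes' spans in the GENCODE annotation, where the genes start farther upstream.
Cfap43: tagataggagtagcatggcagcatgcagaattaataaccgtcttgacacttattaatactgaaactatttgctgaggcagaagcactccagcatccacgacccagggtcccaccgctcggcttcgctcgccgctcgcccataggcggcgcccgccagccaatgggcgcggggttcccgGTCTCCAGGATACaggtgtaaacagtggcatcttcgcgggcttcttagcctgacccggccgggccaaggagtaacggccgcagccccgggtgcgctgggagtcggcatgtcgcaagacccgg
Cfap126: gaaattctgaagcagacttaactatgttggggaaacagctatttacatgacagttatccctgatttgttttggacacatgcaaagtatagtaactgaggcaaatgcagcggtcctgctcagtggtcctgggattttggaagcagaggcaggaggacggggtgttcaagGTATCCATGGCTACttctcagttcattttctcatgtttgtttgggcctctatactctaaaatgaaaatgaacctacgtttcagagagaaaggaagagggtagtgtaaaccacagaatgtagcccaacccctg
Rsph9: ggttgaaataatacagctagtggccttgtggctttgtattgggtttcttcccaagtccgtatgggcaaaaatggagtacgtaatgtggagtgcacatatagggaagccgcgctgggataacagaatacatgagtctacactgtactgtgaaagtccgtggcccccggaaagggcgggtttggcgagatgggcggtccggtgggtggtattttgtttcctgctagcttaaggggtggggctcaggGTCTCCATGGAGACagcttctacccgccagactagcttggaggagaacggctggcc

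Total counts per library ranged from 19879629 to 37166146. Ttr, the gene the vectors target, had 20940, 8527, 7263 and 2121 counts in overexpression replicates 1 to 4, 14, 200, 18 and 18 in control replicates and 3, 47, 29 and 13 in knockdown replicates. Its log2 change was 7.01 with overexpression (edgeR adjusted p = 0.0168) and -1.41 with knockdown (edgeR adjusted p = 0.936), so the counts check the overexpression label and not the knockdown label. Libraries within every group also differed in their content of other cell types. The summed level of 9 striatal projection neuron markers ranged from 294 to 1130 CPM (counts scaled to a common library size with TMM factors) in control, 257 to 1450 in overexpression and 243 to 1280 in knockdown libraries. For 12 mural and meningeal markers the ranges were 130 to 186, 202 to 309 and 150 to 188 CPM, higher in every overexpression library than in all others.

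No member passed the test between any pair of groups. Of the 68 members, 55 passed the expression filter, and 0 of these 55 had an edgeR adjusted p under 0.05 for overexpression against control, where 1 of 18289 genes did (0.00547%), or for knockdown against control (also 0.00547% of genes) or overexpression against knockdown (0.00547%). DESeq2 and limma-voom also called 0 members in each comparison. At an unadjusted edgeR p under 0.05, 1 member (1.82%) passed with overexpression, where 6.26% of all genes did. It was higher, as were 4.58% of genes, and 0 members were lower, against 1.68% of genes. In the same count, 0 members passed with knockdown against 5.68% of genes (3.85% higher, 1.83% lower), and 0 passed between overexpression and knockdown against 5.1% of genes (2.78% higher, 2.32% lower). At that unadjusted level DESeq2 had 1, 1 and 0 of the 55 members, against 1073, 936 and 780 of the 18289 genes. With limma-voom there were 1, 0 and 0 members, against 957, 944 and 871 genes.

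The groups overlapped for all 55 tested members in all 3 comparisons. Among all genes tested, the libraries of the overexpression group lay wholly above the control libraries in 1.88% and wholly below in 0.837%, and those of the knockdown group in 2.78% and 1.33%. Overexpression lay wholly above knockdown in 1.23% and wholly below in 1.14% of genes. The members' median log2 change was 0.068 for overexpression against control (36 higher, 19 lower, all genes 0.00384), 0.0346 for knockdown against control (34 higher, 21 lower, all genes 0.0047) and 0.0243 for overexpression against knockdown (30 higher, 25 lower, all genes 2e-04). The first 2 comparisons share the control libraries. On simulated counts with known changes, the same test found 91% of 2-fold changes for overexpression (18111 genes) and 85.1% for knockdown (18106 genes). The changed genes were drawn only from genes above a mean level that Dnah3, Dnah10, Dnah12 and Cfap43, among other members, do not reach. Many members also lie at far lower and more variable levels than the typical gene, so this reach need not hold for them.

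**Figure D1:**
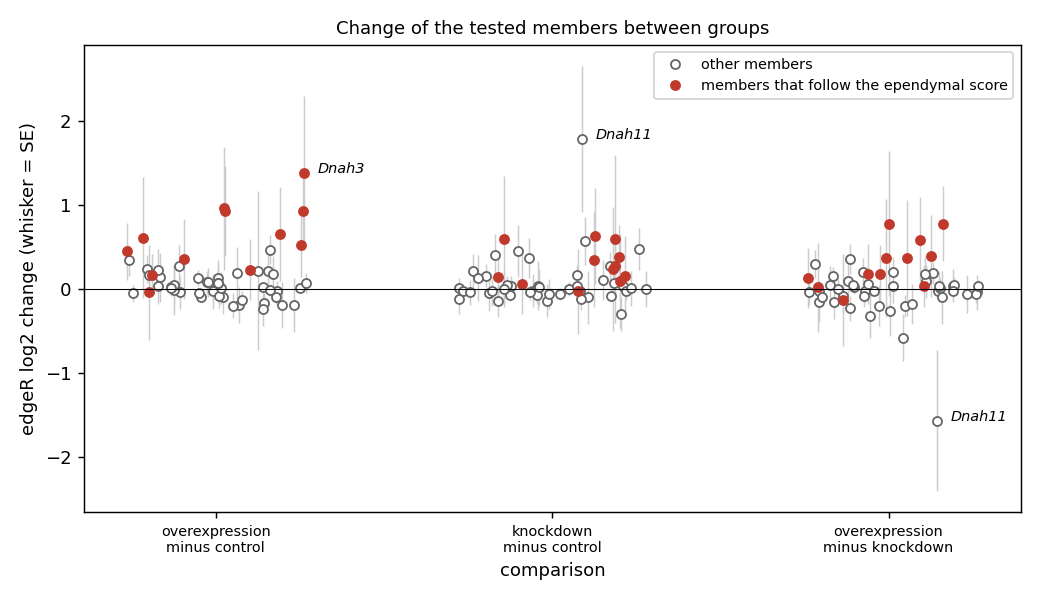
Log2 change of each tested member in edgeR (points) with its standard error (bars) in the 3 comparisons. Most members lie close to 0, and the members far from it, such as Dnah3 and Dnah11, have the longest bars.

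The summed level of the 58 axonemal members was nearly equal between groups. It was 184, 163, 175 and 197 CPM in control replicates 1 to 4, 202, 165, 211 and 170 in overexpression replicates and 182, 181, 200 and 177 in knockdown replicates. The group means were 180 ± 14, 187 ± 22.9 and 185 ± 10.3 CPM (SD, n = 4 each), so the differences are smaller than the spread within groups. Libraries stood apart within groups instead: overexpression replicates 1 and 3, control replicate 4 and knockdown replicate 3 were the highest of the 12. The 9 members with other roles summed to 655 to 740 CPM, so most counts of the symbol rule do not come from axonemal genes. In bulk tissue, fewer ciliated cells and less of these RNAs per cell cannot be told apart.

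To relate members to ependymal cells, an ependymal score was taken in each library as the mean centred log2 CPM of 14 measured of 15 listed ependymal markers. None of them is a member, but the score is not independent of cilium genes. Ak7, Dynlrb2, Enkur and Pifo among the markers are axoneme subunits themselves. A member that rises with the score thus rises in part with other axoneme genes. The score was -0.678, -0.485, -0.566 and 0.781 in control replicates 1 to 4, 0.333, -0.545, 1.105 and -0.090 in overexpression replicates and -0.282, 0.070, 0.782 and -0.425 in knockdown replicates. The scores were graded, with a largest gap of 0.448 in a range of 1.78, and each group held both low and high libraries. Ccdc153, an ependymal gene of motile cilia, had 3, 5, 1 and 72 counts in control, 37, 5, 107 and 14 in overexpression and 4, 14, 68 and 1 in knockdown libraries, so this marker was near 0 in some libraries of each group and well detected in others. Foxj1 varied less, with 70, 129, 136 and 192 counts in control, 141, 114, 188 and 123 in overexpression and 70, 130, 196 and 55 in knockdown libraries. Its log2 changes were -0.03, -0.24 and 0.21 in the 3 comparisons (edgeR adjusted p = 0.994, 0.967 and 0.989). Of 12 ependymal markers tested, 10 were higher with overexpression than in control (median log2 change 0.34) and 9 with knockdown (median 0.19), and 0 passed the edgeR test. At an unadjusted edgeR p under 0.05, 0 passed with overexpression and 2 were higher with knockdown, Mlf1 (0.76 ± 0.25) and Fam183b (0.47 ± 0.18). Of all genes, 3.85% were higher with knockdown at that level. The other direction held for 3 of the 12 markers with knockdown: Foxj1 (-0.24), Enkur (-0.23) and Ccdc153 (-0.11).

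Of the 68 members, 17 rose with the ependymal score across the 12 libraries (permutation test of Pearson's r, 100000 resamples, two-sided, Benjamini-Hochberg adjusted over the 68 correlations), and 0 fell with it. They are Dnah2, Dnah3, Dnah6, Dnah10, Dnah12, Cfap43, Cfap44, Cfap52, Cfap73, Cfap77, Cfap126, Cfap157, Cfap161, Cfap221, Spag8, Spag16 and Spag17. The share of all genes that would pass this correlation test was not computed. The count of 17 of 68 therefore has no background share beside it, and following the score is not shown to be particular to the members. Dnah3 had r = 0.96 and rho = 0.93 (adjusted permutation p = 0.000227, raw p = 1e-05, the smallest that the resamples can give). Dnah6 had r = 0.96 and rho = 0.94, and Cfap43 r = 0.95 and rho = 0.93, both with the same adjusted permutation p. Leaving out overexpression replicate 3 and knockdown replicate 3, the libraries farthest from the median score, r was 0.95, 0.95 and 0.92 for these 3 genes, and 10 members passed, 9 of them among the 17. With values centred on each group's mean 19 passed, and for the 16 of them among the 17 the relation thus held with the group differences removed. With Foxj1 alone in place of the score, only 2 members passed, both among the 17. With the score itself, 57 of all 68 members had a positive r and the median was 0.41. At the other end lay Spag6 (r = -0.43, rho = -0.55, adjusted permutation p = 0.33), Cfap61 (r = -0.38, rho = -0.33, adjusted permutation p = 0.39) and Cfap36 (r = -0.24, rho = -0.30, adjusted permutation p = 0.655).

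**Figure D2:**
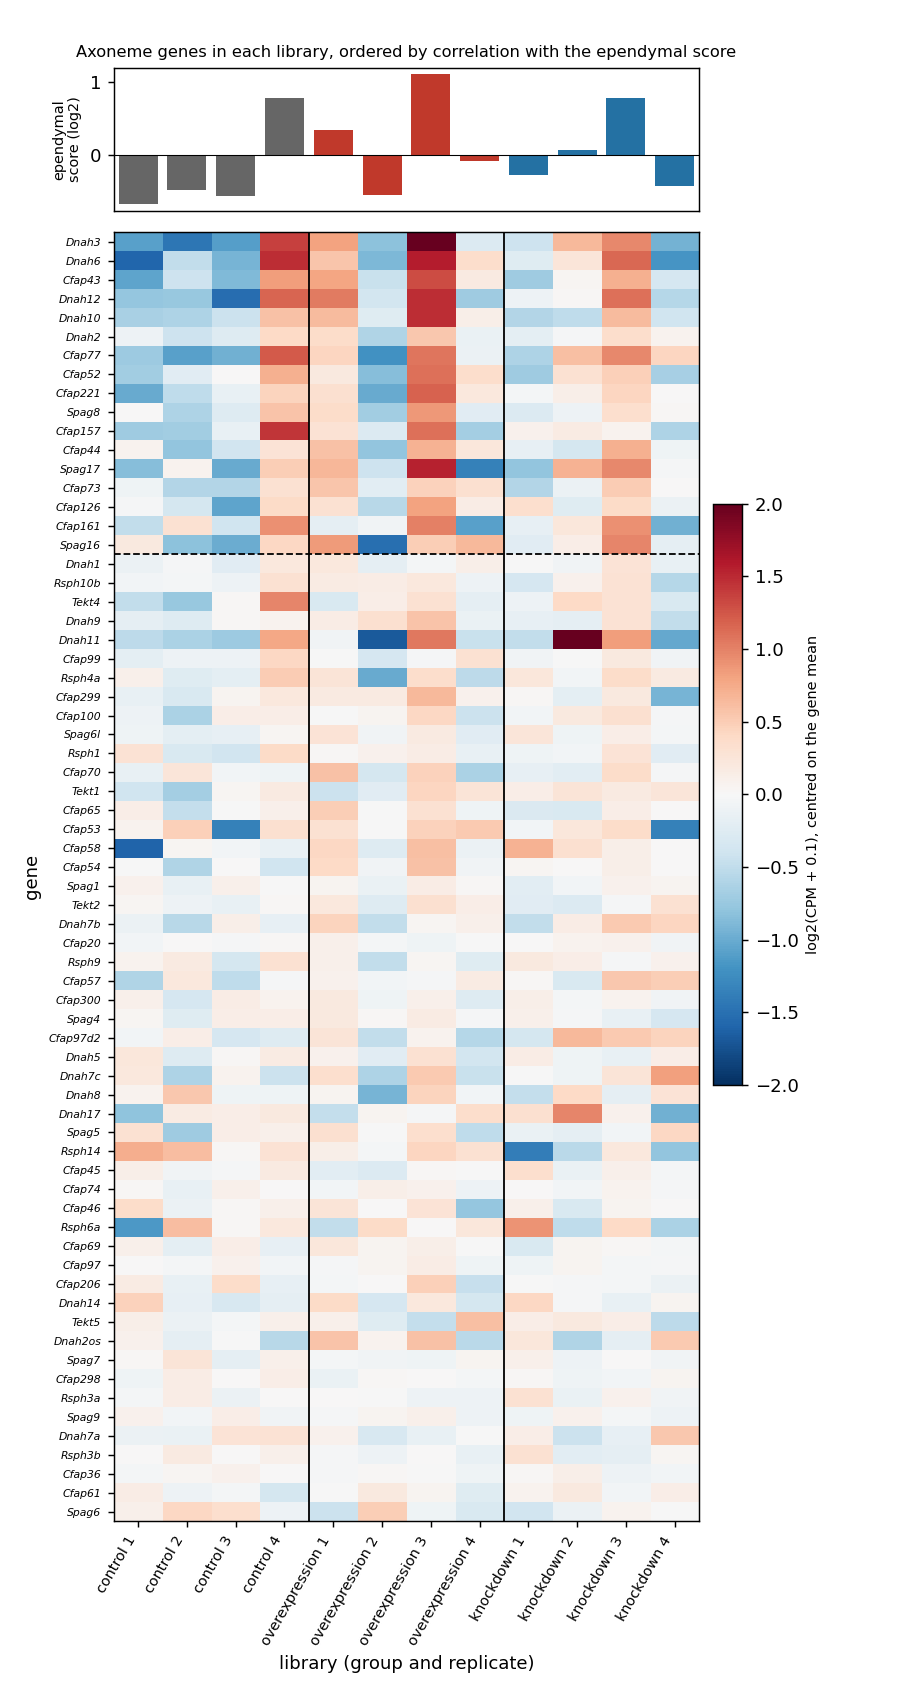
Level of the members in each of the 12 libraries, as log2(CPM + 0.1) relative to each member's mean, beside the ependymal score. Most members that follow the score are high together in control replicate 4, overexpression replicates 1 and 3 and knockdown replicate 3, and the pattern fades down the order of correlation. There are exceptions, such as Cfap161 in overexpression replicate 1 (0.336 CPM, mean 0.448).

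These 17 members are a low part of the set. Their mean level was 0.0666 to 1.76 TPM (a unit that corrects for gene length) with a median of 0.269, against 0.054 to 153 TPM and a median of 1.85 for the other 51. All 17 are axonemal, whereas the 51 include the 9 members with other roles, among them Spag9 at 153 TPM. The highest axonemal member, Rsph9, had 29.8 TPM. For the 17 followers, the coefficient of variation over the 12 libraries was 25.1 to 117% with a median of 63.3%. For the other 51 it was 4.14 to 146% with a median of 19.1%, the lowest being that of Cfap20. Counting noise is larger for genes with few counts, and Cfap73, for example, had 0 to 4 counts per library. The part of counting noise in this contrast was not tested. The highest library was overexpression replicate 3 for 12 of the 17, control replicate 4 for 2, knockdown replicate 3 for 2 and overexpression replicate 1 for 1. Summed, they stood at 9.57, 7.86, 8.03 and 20.2 CPM in control, 17.9, 7.12, 26 and 12.3 in overexpression and 9.95, 12, 20 and 10.3 in knockdown libraries. The other axonemal members summed to 174, 156, 167 and 177 CPM in control, 184, 158, 185 and 158 in overexpression and 172, 169, 180 and 166 in knockdown libraries, so the same 4 libraries were the highest, by a smaller factor. For the followers, the group means of 11.4 ± 5.91, 15.9 ± 8.09 and 13 ± 4.72 CPM (SD, n = 4 each) differed by less than the spread within groups. Of the 17, 5 fell below the expression filter and were not tested between groups. Of those matched to a promoter, 3 of 14 held the X-box pattern (21.4%, exact interval 4.66 to 50.8%) against 7 of 41 other members (17.1%, 7.15 to 32.1%), shares that this number of genes does not separate.

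By role, the followers were 5 of 10 inner arm dynein heavy chains, 0 of 5 outer arm heavy chains, 0 of 8 radial spoke genes, 3 of 9 central apparatus genes, 5 of 11 tektins and proteins inside the doublet microtubules, 4 of 15 tether and other Cfap genes and 0 of 9 members with other roles. These counts depend on the measure: with group-centred values Dnah11 of the outer arm (adjusted permutation p = 0.0429) and the spoke genes Rsph4a (0.0108) and Rsph10b (0.0306) also passed, and by Spearman Dnah11 (0.0149), Rsph4a (0.0437), Dnah1 (0.0422) and Cfap99 (0.0149) did. The differences between roles were not tested.

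Among the inner arm heavy chains, which shape the bend of the cilium, Dnah3, Dnah6, Dnah10 and Dnah12 varied most between libraries, with coefficients of variation of 63.1 to 117%. Dnah3 had 0.0828, 0.0425, 0.0819 and 0.911 CPM in control, 0.58, 0.122, 1.83 and 0.222 in overexpression and 0.194, 0.514, 0.656 and 0.102 in knockdown libraries, replicates 1 to 4 in order. Dnah3 (ENSMUSG00000052273, minus strand of chromosome 7, 119922671 to 120095280, GRCm38) was thus several times higher in control replicate 4 and overexpression replicate 3 than in most libraries of their own groups. Its log2 change with overexpression was 1.38 ± 0.92 (SE, edgeR adjusted p = 0.859). The value moved to 3.20 when control replicate 4 was left out and to 0.26 when overexpression replicate 3 was, so single libraries set it. Dnah6 stood at 0.207, 0.552, 0.382 and 2.47 CPM in control, 1.25, 0.397, 2.65 and 1.07 in overexpression and 0.679, 0.988, 1.94 and 0.306 in knockdown libraries. Dnah6 (ENSMUSG00000052861, minus strand of chromosome 6, 73017606 to 73221651) was highest in the same 4 libraries as the ependymal score. Dnah10 was at 0.456, 0.467, 0.546 and 1.21 CPM in control, 1.25, 0.642, 2.33 and 0.844 in overexpression and 0.485, 0.514, 1.26 and 0.561 in knockdown libraries. Dnah10 (ENSMUSG00000038011, plus strand of chromosome 5, 124725085 to 124834308) had a log2 change of 0.93 ± 0.46 with overexpression against control (edgeR adjusted p = 0.817) and 0.78 ± 0.45 against knockdown (edgeR adjusted p = 0.974). Without overexpression replicate 3 these were 0.46 and 0.32, and without control replicate 4 and knockdown replicate 3, respectively, 1.35 and 1.27.

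Other inner arm chains were steadier. Dnah2 had 2.82, 2.25, 2.51 and 4.03 CPM in control, 3.91, 1.96, 4.41 and 2.75 in overexpression and 2.62, 2.96, 3.88 and 3.16 in knockdown libraries. Dnah1 stood at 7.33, 7.82, 6.8 and 9.2 CPM in control, 9.28, 7.06, 7.74 and 8.66 in overexpression and 7.96, 7.63, 9.64 and 7.19 in knockdown libraries. The level of Dnah2 followed the score with a small amplitude, and Dnah1, the most abundant inner arm chain, missed the test (r = 0.68, adjusted permutation p = 0.0583), although it passed without the 2 farthest libraries (r = 0.85, adjusted permutation p = 0.0198). Dnah7b was at 2.69, 1.95, 3.19 and 2.6 CPM in control, 4, 2.05, 3.01 and 3.15 in overexpression and 2.04, 3.24, 4.22 and 3.98 in knockdown libraries. Dnah7a, Dnah7b and Dnah7c are close copies and may share reads, so their separate values are uncertain.

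**Figure D3:**
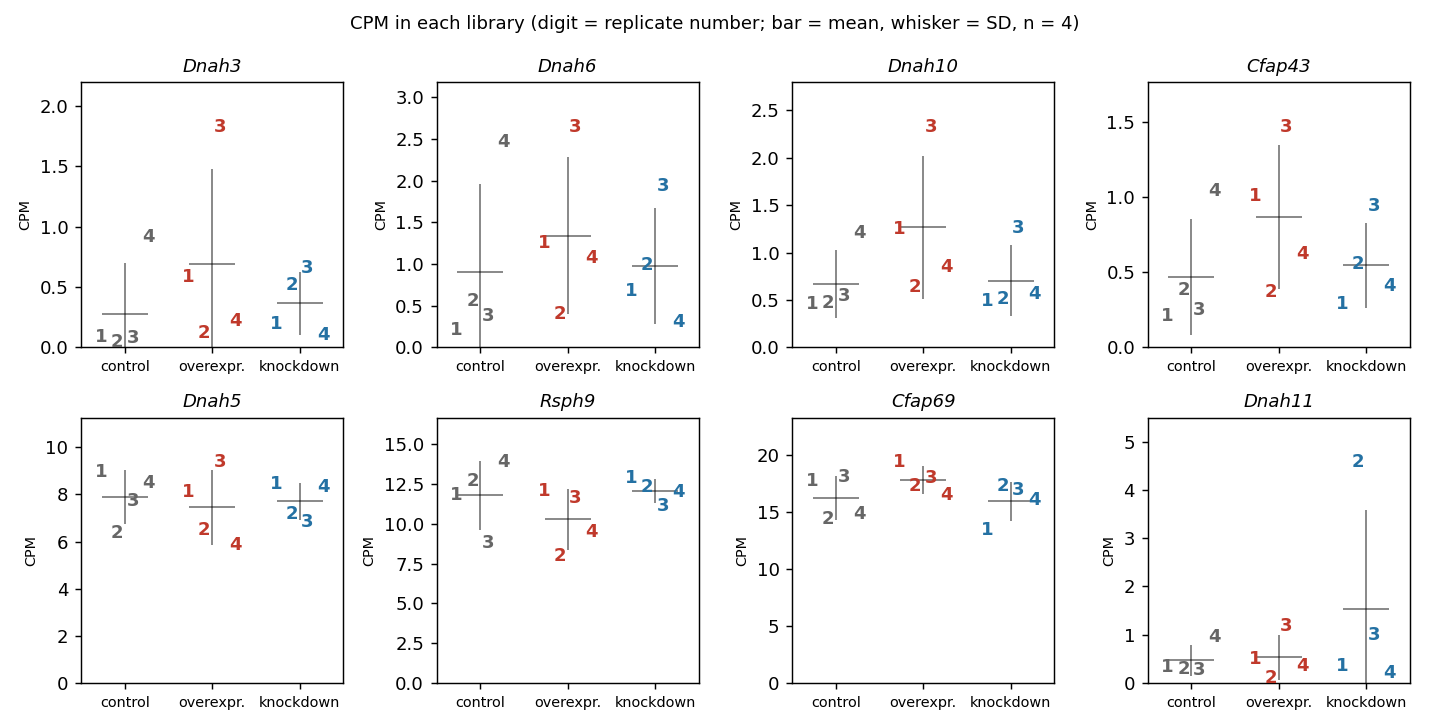
CPM in each library (digits, the replicate numbers), group mean (bars) and SD (whiskers, n = 4) for 8 members: Dnah3, Dnah6, Dnah10 and Cfap43, which follow the ependymal score, Dnah5, Rsph9 and Cfap69, which do not, and Dnah11. The groups overlap in every panel, and Dnah11 reaches 4.58 CPM in knockdown replicate 2 and at most 1.18 CPM elsewhere.

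The outer arm heavy chains give most of the power of the stroke. Dnah5 had 8.95, 6.37, 7.73 and 8.5 CPM in control, 8.12, 6.48, 9.38 and 5.86 in overexpression and 8.44, 7.19, 6.85 and 8.32 in knockdown libraries. Dnah9 stood at 3.11, 2.97, 3.6 and 3.73 CPM in control, 3.97, 4.46, 5.3 and 3.24 in overexpression and 3.15, 3.12, 4.36 and 2.5 in knockdown libraries. Dnah5, the outer arm chain most often mutated in primary ciliary dyskinesia, and Dnah9, its partner in the distal part of the cilium, had coefficients of variation of 14.6% and 21.6% over the 12 libraries, and both were highest in overexpression replicate 3. Dnah9 had log2 changes of 0.34 ± 0.18 against control and 0.36 ± 0.18 against knockdown with overexpression (edgeR adjusted p = 0.836 and 0.974). Dnah11 was at 0.331, 0.297, 0.273 and 0.954 CPM in control, 0.488, 0.0917, 1.18 and 0.355 in overexpression and 0.34, 4.58, 0.998 and 0.204 in knockdown libraries. Dnah11 (ENSMUSG00000018581, minus strand of chromosome 12, 117877982 to 118199043), the partner of Dnah5 near the base of the cilium, was highest in knockdown replicate 2, where it had 116 counts, and next highest in overexpression replicate 3, knockdown replicate 3 and control replicate 4, which are high in ependymal markers. Its log2 change with knockdown was 1.79 ± 0.87 (edgeR adjusted p = 0.894), and 0.32 without that library. Against overexpression the value of -1.57 ± 0.84 (edgeR adjusted p = 0.974) became -0.10 without it. The gene overlaps Cdca7l, which had 64 counts in that library and 10 to 33 in the others, so reads of one may be counted to the other. The ependymal score of knockdown replicate 2 was 0.070. Across all libraries Dnah11 missed the correlation test (r = 0.64, adjusted permutation p = 0.0718) but passed it by Spearman (rho = 0.83, adjusted permutation p = 0.0149).

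Radial spoke genes, whose products reach from the doublets to the central pair, spanned a wide range of levels per length. Mean TPM was 29.8 for Rsph9, 16.5 for Rsph3b and 10.2 for Rsph3a, 2.82 to 4.8 for Rsph1, Rsph10b and Rsph4a, and 0.378 and 0.253 for Rsph14 and Rsph6a. The groups are shown for the first 3. Rsph9 had 11.8, 12.7, 8.79 and 13.9 CPM in control, 12.1, 7.98, 11.6 and 9.46 in overexpression and 12.9, 12.3, 11.1 and 12 in knockdown libraries. Its libraries overlapped between all groups. Rsph3b stood at 10.5, 11.9, 10.5 and 11.3 CPM in control, 10.3, 9.81, 10.5 and 9.5 in overexpression and 13, 9.09, 9.27 and 10.8 in knockdown libraries. Rsph3a was at 8.61, 9.81, 8.08 and 8.89 CPM in control, 8.88, 8.8, 8.24 and 8.17 in overexpression and 10.9, 8.06, 9.36 and 8.42 in knockdown libraries. None of these passed the correlation test, and Rsph9 was higher in control replicate 2 and knockdown replicate 1 than in overexpression replicates 1 and 3. Rsph3a and Rsph3b are near copies that may share reads. Rsph9 (ENSMUSG00000023966, minus strand of chromosome 17, 46122035 to 46144216) overlaps Mrps18a, a mitochondrial ribosome gene.

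Central apparatus genes, which encode the central pair's projections, split into steady and varying ones. Cfap69 had 17.7, 14.4, 18.1 and 14.8 CPM in control, 19.4, 17.3, 18 and 16.5 in overexpression and 13.4, 17.3, 16.9 and 16.1 in knockdown libraries. Cfap74 stood at 13.9, 12.4, 14.7 and 13.8 CPM in control, 13.2, 14.9, 14.6 and 12.8 in overexpression and 13.8, 13.2, 14.4 and 13.5 in knockdown libraries. Spag6l was at 6.09, 5.65, 5.79 and 6.68 CPM in control, 7.9, 6.21, 7.41 and 5.55 in overexpression and 7.67, 6.09, 7.1 and 6.33 in knockdown libraries. Cfap69 and Cfap74 varied by 10.4% and 5.69% (coefficient of variation) over the 12 libraries. Cfap54 had 5.14, 3.36, 5.21 and 3.9 CPM in control, 6.84, 4.92, 7.81 and 4.93 in overexpression and 5.29, 5.18, 5.62 and 5.2 in knockdown libraries. Cfap54 (ENSMUSG00000020014, minus strand of chromosome 10, 92775619 to 93081618) was the member with the smallest p between overexpression and control, a log2 change of 0.47 ± 0.17 (edgeR adjusted p = 0.724). Its overexpression libraries overlapped the control libraries, since overexpression replicates 2 and 4 lay below control replicates 1 and 3. With knockdown its log2 change was 0.27 ± 0.17 (edgeR adjusted p = 0.912). Spag6 stood at 3.98, 4.93, 4.7 and 3.43 CPM in control, 2.72, 5.2, 3.47 and 2.98 in overexpression and 2.81, 3.4, 3.88 and 3.67 in knockdown libraries. Spag6, a central pair gene with a close copy in Spag6l, had the lowest correlation with the ependymal score, and reads of the copies may be shared. Spag16, Spag17 and Cfap221, also of the central apparatus, were among the followers at mean levels of 0.436, 0.0666 and 0.107 TPM.

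Of the tektins and other proteins that line the inside of the doublets, Tekt5 (12.2 TPM) and Cfap45 (4.97 TPM) had the highest mean levels per length, and the other 9 had 0.236 to 1.83 TPM. Tekt5 was at 9.19, 7.86, 8.24 and 9.15 CPM in control, 9.16, 7.15, 6.09 and 13 in overexpression and 9.32, 9.76, 9.27 and 5.87 in knockdown libraries. Cfap45 had 4.02, 3.53, 3.66 and 4.21 CPM in control, 3.2, 3.06, 3.8 and 3.69 in overexpression and 4.71, 3.4, 3.99 and 3.62 in knockdown libraries. Tekt1 stood at 0.746, 0.595, 1.04 and 1.17 CPM in control, 0.732, 0.856, 1.4 and 1.24 in overexpression and 1.12, 1.23, 1.17 and 1.22 in knockdown libraries. Tekt5 had its extremes in overexpression replicate 4 and knockdown replicate 4, neither of them high in the ependymal score. Tekt1 had a log2 change of 0.40 ± 0.25 with knockdown (edgeR adjusted p = 0.908). The followers of this role were Cfap52, Cfap77, Cfap126, Cfap161 and Spag8.

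Among the tether proteins and other Cfap genes, Cfap43 and Cfap44, which together hold an inner arm dynein to the doublet, both followed the score. Cfap43 was at 0.207, 0.382, 0.246 and 1.04 CPM in control, 1.01, 0.367, 1.47 and 0.622 in overexpression and 0.291, 0.553, 0.941 and 0.408 in knockdown libraries. Cfap43 (ENSMUSG00000044948, minus strand of chromosome 19, 47736857 to 47919287) had a log2 change of 0.93 ± 0.54 with overexpression (edgeR adjusted p = 0.842), with 1.64 when control replicate 4 was left out and 0.55 when overexpression replicate 3 was. Cfap44 ranged from 1.44 CPM in control replicate 2 and overexpression replicate 2 to 4.25 CPM in knockdown replicate 3. Cfap300 and Spag1, the latter a cytoplasmic factor of dynein assembly, showed no such contrast. Cfap300 had 9.53, 7.05, 9.94 and 9.41 CPM in control, 10.2, 8.38, 9.53 and 7.42 in overexpression and 9.71, 8.66, 9.36 and 8.47 in knockdown libraries. Spag1 stood at 11.4, 9.6, 11.5 and 10.6 CPM in control, 11.1, 9.69, 11.8 and 10.8 in overexpression and 9.22, 10.3, 11.4 and 11.1 in knockdown libraries. The values correspond to coefficients of variation of 11% and 7.84%. Cfap61, Cfap65 and Cfap57 did not follow the score either. Cfap61 was at 3.31, 2.76, 2.87 and 2.3 CPM in control, 2.93, 3.39, 3.08 and 2.49 in overexpression and 3.11, 3.4, 2.85 and 3.27 in knockdown libraries. Cfap65 had 4.35, 2.8, 3.93 and 4.25 CPM in control, 5.58, 3.91, 4.87 and 3.69 in overexpression and 3.2, 3.16, 4.31 and 3.98 in knockdown libraries. Cfap57 stood at 0.663, 1.23, 0.71 and 1.04 CPM in control, 1.13, 1.01, 1.04 and 1.2 in overexpression and 1.07, 0.83, 1.57 and 1.53 in knockdown libraries. Cfap57 had a log2 change of 0.48 ± 0.25 with knockdown (edgeR adjusted p = 0.897), and Cfap65 had 0.30 ± 0.17 between overexpression and knockdown (edgeR adjusted p = 0.974).

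**Figure D4:**
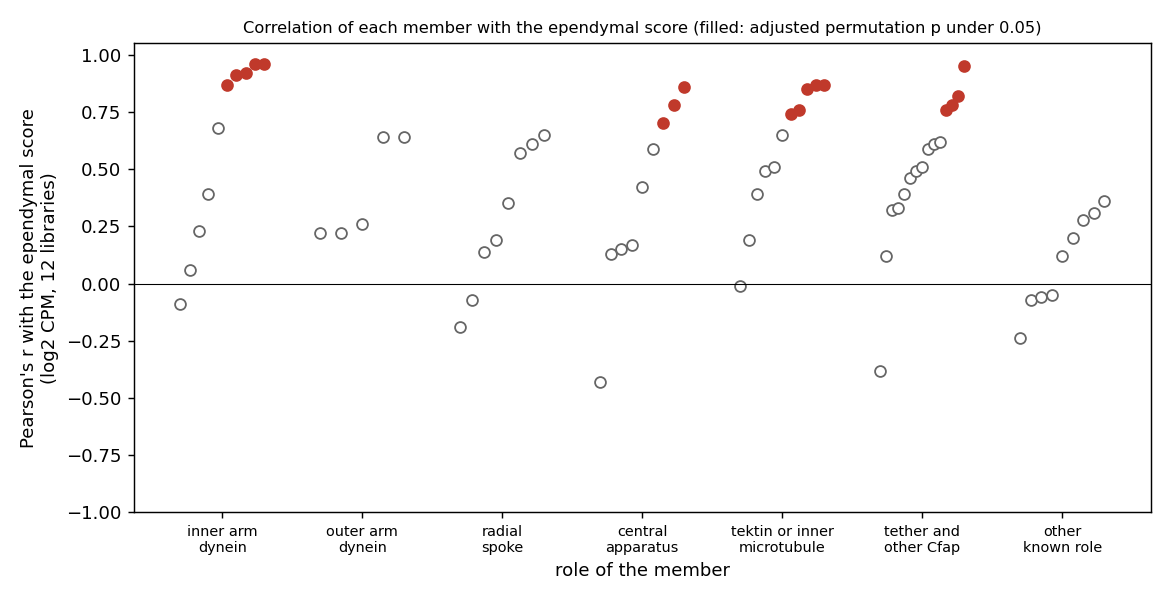
Correlation of each member's log2 CPM with the ependymal score over the 12 libraries, by role. Inner arm dyneins, central apparatus, inner microtubule and tether genes reach the highest values, and no outer arm or radial spoke gene passes the adjusted test of Pearson's r, although Dnah11 and Rsph4a pass by Spearman and with group-centred values.

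Members with other roles included the most abundant of the set. Spag9, a scaffold that links motor proteins to cargo and kinase signalling, ranged from 412 to 484 CPM (153 TPM on average), Spag7 from 35.7 to 48.2 CPM (88.3 TPM) and Cfap20, a microtubule protein of cilia that is also found beyond them, from 42.2 to 47.8 CPM (87.3 TPM). Cfap36 was at 92.5, 96.8, 99.9 and 95.1 CPM in control, 92.9, 96.4, 94.3 and 88.8 in overexpression and 96.2, 103, 88.5 and 91.1 in knockdown libraries. Cfap36, whose product binds the small GTPase Arl3, stood at 144 TPM on average and varied by 4.51%. Cfap97 ranged from 33.7 to 39.8 CPM and Spag5, a mitotic spindle gene, from 5.78 to 12.7 CPM. Cfap97d2 had 0.621, 0.722, 0.491 and 0.521 CPM in control, 0.793, 0.428, 0.68 and 0.4 in overexpression and 0.485, 1.07, 0.97 and 0.918 in knockdown libraries. The log2 changes of Cfap97d2 were 0.57 ± 0.29 for knockdown against control (edgeR adjusted p = 0.897) and -0.58 ± 0.28 for overexpression against knockdown (edgeR adjusted p = 0.974), the latter with the smallest p of all members in that comparison.

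Genes that work with the members were read from 5 lists, and none passed the edgeR test in any comparison. At an unadjusted edgeR p under 0.05, 4.58% of all genes were higher and 1.68% lower with overexpression. The shares were 3.85% and 1.83% with knockdown, and 2.78% and 2.32% for overexpression against knockdown. The list counts below were not tested against these shares, and single genes named at that level are not calls. Of 13 tested dynein assembly and docking factors, 0 were called, and at an unadjusted p under 0.05 there were 2 higher with overexpression (Dnaaf3, log2 change 0.79 ± 0.34, and Ttc25, 0.43 ± 0.18) and 1 with knockdown (Zmynd10, 0.53 ± 0.22). Of 31 other axoneme subunits, 1 was higher at that level in each Ttr group: Hydin, a large central pair gene, with log2 changes of 1.11 ± 0.37 with overexpression (edgeR adjusted p = 0.646) and 1.23 ± 0.37 with knockdown (edgeR adjusted p = 0.63). Hydin was at 0.746, 0.467, 0.437 and 1.21 CPM in control, 1.59, 0.764, 2.11 and 1.64 in overexpression and 1.02, 2.02, 2.03 and 1.43 in knockdown libraries. Control replicate 4 was thus inside the range of both other groups, which share it as control. Of 11 multiciliation regulators, 0 passed the unadjusted level in either direction in any comparison. Of 22 genes of intraflagellar transport, the system that builds every cilium, 2 (Ift80 and Ift88) were lower at that level with knockdown, by log2 changes of -0.15 ± 0.06 and -0.13 ± 0.06. Of 20 genes of neuronal primary cilia, Bbs9 was lower at that level with overexpression and with knockdown, and Gpr161 was higher with knockdown. Between overexpression and knockdown, Dnal4 and Ift22 were lower and Ift88 higher at that level.

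Some genes of these lists also followed the ependymal score, an analysis added after the members' result was seen. With p-values adjusted over the 102 genes of the 5 lists together, 5 of 34 other axoneme subunits followed the ependymal score: Dnali1, an inner arm light chain (r = 0.94, rho = 0.87, adjusted permutation p = 0.0051), Wdr63, Spef2, Lrrc23 and Ak9. So did 2 of 14 assembly and docking factors, Ccdc40 (r = 0.90, rho = 0.85, adjusted permutation p = 0.00892) and Ccdc114 (r = 0.78, rho = 0.71, adjusted permutation p = 0.0421), and 1 of 12 multiciliation regulators, Myb (r = 0.77, rho = 0.80, adjusted permutation p = 0.0444). Without overexpression replicate 3 and knockdown replicate 3, Dnali1, Wdr63 and Ccdc40 still passed and the other 5 did not. Of the intraflagellar transport genes 0 of 22 passed, with a median r of -0.02, and of the genes of neuronal primary cilia 0 of 20, with a median r of 0.15. For these lists, too, the share of all genes that would pass was not computed.

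Other marker lists moved in part with the same libraries. The striatal score was 1.195 in control replicate 4 and 1.398 in knockdown replicate 3, which are high in ependymal markers, but also 1.574 in overexpression replicate 4 (ependymal score -0.090) and -0.249 in overexpression replicate 3 (ependymal score 1.105). The mural and meningeal score was highest in overexpression replicate 3 (1.288) and lowest in control replicate 4 (-1.165), both high in ependymal score. Choroid plexus markers, 14 measured of 14, summed to 5.59 to 7.5 CPM in control, 6.18 to 16.2 in overexpression and 6.38 to 12.1 in knockdown libraries. Some of them were near 0 in most libraries, such as Kcne2 at 0 to 2 counts, Tmem72 at 0 to 5 and Otx2 at 0 to 15. Others had wider ranges between libraries: Clic6 with 10 to 154 counts, Kcnj13 with 0 to 57, Kl with 57 to 156 and Aqp1 with 2 to 80. The part of these cell types in the members' values was not tested.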

How the data were processed

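Poly(A) RNA of 12 prefrontal cortex libraries (4 control, 4 overexpression, 4 knockdown) was analysed from tables deposited by the authors. The authors deposited whole-number counts per gene, not normalized, and TPM values, which are scaled by gene length to a common total. Libraries were made with a directional kit and adaptors carrying molecular identifiers, per the labels' protocols. Per the submitters' processing notes, the build was GRCm38 (mm10) and the tools named, without saying what each did, were DESeq2, featureCounts, UMI-tools and bcl2fastq (2.20.0.422). Strand setting, duplicate removal, aligner and annotation release were not given in the sources used here. Overlapping genes (36 members overlap another gene with counts) and close copies may therefore share reads.

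Of 55401 identifiers, 55141 matched a symbol of the GENCODE annotation on GRCm38 and 260 (0.00474% of counts) did not. Counts were tested in R 4.3.3 by edgeR 4.0.16 (quasi-likelihood test, TMM factors), with the default filter by group (18289 genes tested) and all 12 libraries in 1 fit of 3 group means. P-values are two-sided and Benjamini-Hochberg adjusted over all genes tested, with a threshold of 0.05. The common dispersion had a square root of 0.126. Correlations used log2 CPM with a prior count of 2. Total counts of 19879629 to 37166146 per library set the counting precision, and binomial intervals cover counting error only. On simulated counts with 200 changed genes, drawn from those with a mean over 1 CPM, the test recovered 64.2% of 1.5-fold and 100% of 4-fold changes with overexpression (9 calls among unchanged genes, 18111 genes) and 56.7% and 98.5% with knockdown (8 such calls, 18106 genes).

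Alternatives were DESeq2 1.42.0, limma 3.58.1 (voom, and log2(TPM + 0.1)), other scaling factors and filters, fits of just the compared groups, replicate number as a block, and leaving out each library. No pair of libraries within a group agreed within sampling noise (chi-square per degree of freedom 5.37 to 28.3 over 18 pairs). The members and gene lists were chosen with earlier results of these data known. Members given with all values were the 3 of highest mean CPM in each structural role, the 5 with the smallest p in each comparison, and the 3 with the highest and the 3 with the lowest correlation with the ependymal score. Of each pathway list, the genes named were those with the smallest p-values or that followed the score. The deposited variance-stabilised table was not used here. Permutations and figures were made in Python 3.11.15 (matplotlib 3.10.9).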

Additional observations from a re-analysis of the deposited data

Results flagged for a closer look

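In 93 groups of 4 libraries (31 quantities in 3 groups), 8 held a library whose gap to its nearest neighbour exceeded Dixon's 95% critical value, as a share of the group's range. For independent quantities with normal spread, chance alone gives this in about 1 in 20 groups. These quantities are not independent. Several were chosen by their correlation with the ependymal score or are sums that share genes, and control replicate 4 is itself high in that score (0.781). Its flags below are therefore not separate events, and the count of 8 is not a test. Control replicate 4 accounted for 6 of the 8. It held 0.911 CPM of Dnah3 where the other control libraries held 0.0425 to 0.0828, 2.47 CPM of Dnah6 (others 0.207 to 0.552), 1.21 CPM of Dnah10 (others 0.456 to 0.546) and 0.954 CPM of Dnah11 (others 0.273 to 0.331). The summed level of the 17 members that follow the ependymal score was 20.2 CPM in it (others 7.86 to 9.57), and that of the ependymal markers themselves was 28.8 CPM (others 12.9 to 15.5). Knockdown replicate 3 had 1.26 CPM of Dnah10, against 0.485 to 0.561 in the other knockdown libraries. Tekt5 was lowest in knockdown replicate 4, at 5.87 CPM against 9.27 to 9.76, and does not belong to the members that follow the score.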

How the results depend on the processing

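No member was called in any comparison under any alternative, and the 15 named member changes kept their direction and stayed short of the threshold in all 309 alternative values, with a smallest adjusted p of 0.241. Counts of called genes over the whole table did move. Against 1 gene in each comparison, DESeq2 called 38 for overexpression, 43 for knockdown and 11 between them, limma-voom called 0 for overexpression and 0 between overexpression and knockdown, fits of only the groups compared called 0 for overexpression and 2 for knockdown, and limma on log2(TPM + 0.1) called 0 for knockdown. With the replicate number as a block, 0 genes were called for knockdown and 2 between overexpression and knockdown, and it changed no call of a member. Same-numbered libraries did not deviate together (correlations -0.341 to 0.16 over 12 pairs, 2 of them over 0.1, and 1 library matched best by its own number). The labels do not say whether the number marks a shared litter, day or batch. These correlations cannot decide it, since libraries also differ in their content of other cell types.

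Leaving out each library in turn gave 0 to 4, 0 to 10 and 0 to 2 called genes. The members' median log2 change ran from -0.0304 to 0.134 for overexpression, negative only without overexpression replicate 3, from -0.0174 to 0.0923 for knockdown, negative only without knockdown replicate 3, and from -0.0504 to 0.0503 between them. The log2 ratio of the summed axonemal level was 0.056 (-0.008 to 0.112), 0.040 (-0.003 to 0.086) and 0.016 (-0.048 to 0.072), and this leave-one-out was chosen after seeing the data. The 17 members that follow the ependymal score were 20 by Spearman (16 shared), 10 without the 2 farthest libraries, 2 with Foxj1 alone in place of the score, and 13 to 20 with each library left out. The cause of these moves was not tested. Low counts limit the members that follow the score, 5 of which fell below the filter.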

Other observations

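Both dynein intermediate chain genes, which the symbol rule leaves out, varied little in most libraries: Dnaic1 ranged from 2.2 to 3.54 CPM over the 12 libraries and Dnaic2 from 1.28 to 2.83 CPM in 11 of them. The exception was knockdown replicate 4, with 5.41 CPM of Dnaic2, a library with an ependymal score of -0.425. Their log2 changes with knockdown were 0.16 for Dnaic1 (edgeR adjusted p = 0.946) and 0.60 for Dnaic2 (edgeR adjusted p = 0.9). Aqp1, a water channel among the choroid plexus markers, had 80 counts in knockdown replicate 2, the library with the highest Dnah11, and 2 to 30 counts in the others. The choroid plexus list as a whole did not stand out there. Its score, taken as for the ependymal markers, was -0.015 in that library, in a range of -0.541 to 0.493 over the 12 libraries. Dnaic1, Dnaic2 and Aqp1 were chosen after their values were seen.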
